A study of Mus musculus with 7 samples.

Results

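Of the 46639 regions that carried a replication origin in at least 1 of 3 deposited lists of mouse embryonic stem cells (mESCs), 3873 (8.3%) were in the list of untreated cells only. They were chosen by these lists: rows of the APH, CDC6 and WT lists on the 19 autosomes and X were merged where they overlapped by at least 1 bp, and merged regions made of WT rows only were kept. Each of the 3873 WT-only regions was 1 row of the WT list, and together they were 19.2% of its 20178 rows. The other classes were all 3 lists (11888 regions), WT and APH (2449), WT and CDC6 (1798), APH and CDC6 (8218), APH only (9017) and CDC6 only (9396). Membership was thus fixed by the measured origins, and what the lists or the peaks behind them show at these regions is given as a description, without a test. Lists rebuilt from the peaks that both libraries of a condition shared gave 7473 WT-only regions, and the other values below are for the lists as deposited.

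Origins were mapped from short nascent strands, the newly made DNA around a start of replication, which were selected by size and by resistance to λ-exonuclease. The APH group (2 libraries) was TetO-CDC6 mESCs given 0.5 µM aphidicolin for 2.5 h, and the CDC6 group (2 libraries) was TetO-CDC6 mESCs given 1 µg/ml doxycycline for 30 h to induce CDC6. The WT group (2 libraries) was untreated: WT 2 came from the same TetO-CDC6 cells, and WT 1 from other mESCs and an earlier submission. APH and WT 2 cells therefore also carried the transgene, without doxycycline, and doxycycline without the transgene was not among the groups. The APH and CDC6 libraries are called the stressed libraries here. The labels do not say whether the 2 libraries of a group came from separate cultures, so the spread between them may be technical. The DNA libraries hold no measure of CDC6 level or of the identity of the cells.

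Replication of mammalian chromosomes starts at many more licensed sites than fire in a given cell cycle. CDC6 helps the origin recognition complex to load the MCM helicase at these sites before S phase. Aphidicolin inhibits the replicative DNA polymerases and slows the forks, and slowed forks are known to go together with firing of sites that otherwise stay dormant. Origins in mESCs are known to be dense at CpG-rich promoters and sparse in late-replicating, gene-poor DNA.

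Few WT-only regions lay on a promoter, and those that did are the ones whose sequence can be shown. A promoter window of a protein-coding gene was touched by 94 of the 3873 WT-only regions (2.43%), against 13.6% of all merged regions. In the other classes this share ran between 1.47% (APH only) and 35.9% (all 3 lists). The windows below run from 250 bases before to 50 after a gene start (RefSeq, GRCm38.p6), 5′ to 3′ along the gene, with the CpG dinucleotides in capitals. They are the first 4 of the 6 windows taken by rank: those overlapped by at least 150 bases by the WT-only regions whose lower percentile in the 2 WT libraries was highest. They show how CpG content varied at these sites. The WT-only regions at all 6 windows had a peak in all 4 stressed libraries, which held for 20.8% of all WT-only regions. The windows printed are thus not typical of the WT-only regions. The Cbarp window is chr10:80139318-80139617 (minus strand), the Gm38896 window chr6:124919340-124919639 (plus), the Fbxl12 window chr9:20642757-20643056 (minus) and the Pip5k1a window chr3:95106881-95107180 (minus).
Cbarp: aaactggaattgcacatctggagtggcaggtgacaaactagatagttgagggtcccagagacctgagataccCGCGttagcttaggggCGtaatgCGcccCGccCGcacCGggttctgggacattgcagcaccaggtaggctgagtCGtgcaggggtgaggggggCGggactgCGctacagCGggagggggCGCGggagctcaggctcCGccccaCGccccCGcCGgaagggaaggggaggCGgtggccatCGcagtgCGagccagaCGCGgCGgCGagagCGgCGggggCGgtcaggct
Gm38896: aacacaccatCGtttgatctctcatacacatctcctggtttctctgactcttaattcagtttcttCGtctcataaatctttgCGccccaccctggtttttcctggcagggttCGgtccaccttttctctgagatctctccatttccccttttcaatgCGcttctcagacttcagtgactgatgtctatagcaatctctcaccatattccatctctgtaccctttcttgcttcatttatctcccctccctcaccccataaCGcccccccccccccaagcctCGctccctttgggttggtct
Fbxl12: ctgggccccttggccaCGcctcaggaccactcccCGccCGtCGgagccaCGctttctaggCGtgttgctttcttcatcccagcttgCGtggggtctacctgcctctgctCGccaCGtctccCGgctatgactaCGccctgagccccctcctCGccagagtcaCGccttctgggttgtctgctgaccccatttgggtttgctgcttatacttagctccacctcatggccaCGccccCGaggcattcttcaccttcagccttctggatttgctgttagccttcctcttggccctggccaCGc
Pip5k1a: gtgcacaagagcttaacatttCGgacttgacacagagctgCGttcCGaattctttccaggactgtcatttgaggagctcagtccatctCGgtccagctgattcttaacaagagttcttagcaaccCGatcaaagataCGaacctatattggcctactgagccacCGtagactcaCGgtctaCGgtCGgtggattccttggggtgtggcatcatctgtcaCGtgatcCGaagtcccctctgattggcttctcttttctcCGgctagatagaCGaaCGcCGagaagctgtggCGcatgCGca

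The Cbarp window, at a gene for a regulator of calcium channel β subunits, held 27 CpGs and 68.0% G+C, the most of the 6. Fbxl12, an F-box subunit of ubiquitin ligases, had 16 CpGs and Pip5k1a, a kinase that makes the lipid PI(4,5)P2, had 18. Pcgf6, a Polycomb subunit of embryonic stem cells, had 22 CpGs in the window chr19:47050857-47051156. The non-coding genes Gm38896 and Gm26644 had 7 and 3. These last 2 windows, and none of the other 4, held a G-quadruplex motif (4 runs of at least 3 G, or of C on the other strand, with 1 to 7 bases between runs).

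Over all protein-coding genes, 66 WT-only regions overlapped 74 promoter windows by at least 150 bases. These windows had a median of 21 CpGs (quartiles 14.3 and 25.8) and 60.5% G+C. Windows at regions of all 3 lists had 29 CpGs and 68.3% G+C, and all 21045 protein-coding windows had 13 and 56.7%. The WT-only windows thus lay between these medians, as did the windows of every other class. The remaining classes ran between 14 CpGs and 60.7% G+C (APH only) and 24 CpGs and 66.0% G+C (APH and CDC6). Nothing particular to WT-only windows is read from this. The G-quadruplex motif was in 20.3% of the WT-only windows (95% interval 11.8% to 31.2%), against 22.3% of all windows. In the other classes it was in 56.4% at WT and APH, 25.1% at WT and CDC6, 43.5% at all 3 lists, 47.6% at APH and CDC6, 61.1% at APH only and 28.1% at CDC6 only. The letters TATAAA, on either strand, were in 2 of the 74 WT-only windows (2.70%) and in 12.7% of all windows. Every other class was also below all windows, between 1.28% (WT and APH) and 7.96% (APH only). The letters CCAAT were in 37.8% of WT-only windows and 38.5% of all windows. A match describes these letters only, and intervals for shares are exact Clopper-Pearson intervals that cover counting error alone.

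The first question was whether WT-only regions had peaks in the single stressed libraries. A MACS peak is a region that the authors' peak caller found in 1 library over a control shared by all 6, down to a q-value of 0.1. Such peaks lay at many WT-only regions in the stressed libraries as well. They covered 1878 of the 3873 regions in APH replicate 1 (48.5%), 1766 in replicate 2 (45.6%), 2408 in CDC6 replicate 1 (62.2%) and 1475 in replicate 2 (38.1%), against 3827 in WT 1 (98.8%) and 3873 in WT 2 (100%). CDC6 1 and CDC6 2 stood farther apart than either did from the APH libraries. Absence from both stress lists therefore did not mean absence of a peak. At regions of WT and APH, 78.3% had a peak in CDC6 1 and 69.3% in CDC6 2, and at regions of WT and CDC6, 71.5% had one in APH 1 and 88.1% in APH 2. The other classes of 1 list were in a range similar to WT-only in the libraries of other conditions. At APH only, 61.7% and 61.2% had a peak in CDC6 1 and CDC6 2, and 47.4% and 59.3% in WT. At CDC6 only, 48.5% and 62.3% had one in APH 1 and APH 2, and 61.6% and 50.4% in WT.

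**Figure D1:**
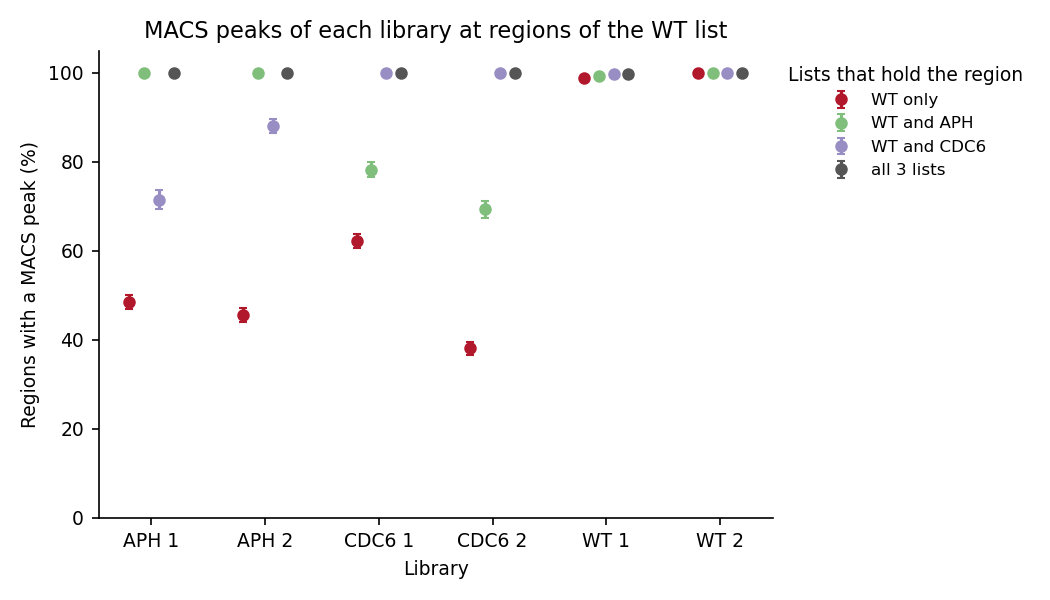
Share of regions (percent, y axis) with a MACS peak in each of the 6 libraries (x axis), for the 4 classes of regions that hold a WT origin; points are shares and bars exact 95% binomial intervals. WT-only regions lie between 38.1% and 62.2% in the stressed libraries, below each other class, and at 98.8% and 100% in the WT libraries.

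The WT-only regions spread almost evenly over the number of stressed libraries with a peak. No stressed library had one at 828 regions (21.4%, interval 20.1% to 22.7%), 1 library at 839, 2 at 735, 3 at 666 and all 4 at 805 (20.8%, interval 19.5% to 22.1%). With peaks of −log10 q at least 2 these shares were 34.6% and 11.8%, and without CDC6 1 no stressed peak remained at 35.3%. Over all 46639 regions, 1.78% had no stressed peak and 66.8% had one in all 4, but every region without a stressed peak is WT-only by construction, so nothing is read from this difference. The most frequent pattern of a single library was CDC6 1 alone, with 540 regions, and APH 1, APH 2 or CDC6 2 alone held 159, 81 and 59.

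Both libraries of a stress had a peak at part of the WT-only regions and its list still had no origin there. For APH, 1328 regions (34.3%) had a peak in both libraries, 988 in 1 and 1557 (40.2%) in neither. For CDC6, 1211 (31.3%) had a peak in both libraries, 1461 in 1 and 1201 (31.0%) in neither. The rows of each condition list were also rows of 1 of the second lists that the authors deposited for single libraries. Of the 1328 regions, 377 (28.4%) overlapped the second list that held the APH rows, and of the 1211 regions, 423 (34.9%) overlapped the one that held the CDC6 rows. At 2139 regions (55.2%), neither stress had a peak in both libraries. The way in which the authors combined libraries into a list is not stated in the sources.

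The second lists bear labels that go against the other files. The WT rows were identical to rows of the second list labelled APH 1, the APH rows to the one labelled CDC6 1 and the CDC6 rows to the one labelled CDC6 2. Every row of a condition list also overlapped 1 further second list. This was the one labelled WT 1 for the WT list, WT 2 for the APH list and APH 2 for the CDC6 list. With the remaining second lists the overlap was 65.2% to 80.2% of rows. All 3873 WT-only regions therefore overlapped the second lists labelled APH 1 and WT 1, and 24.9%, 15.0%, 18.2% and 18.7% overlapped those labelled APH 2, CDC6 1, CDC6 2 and WT 2. MACS lists and condition lists were used as labelled throughout.

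WT-only regions ranked lower within each library than regions of all 3 lists. In the WT libraries, the strongest peak of a WT-only region had a median percentile of 61.2 in WT 1 and 66.4 in WT 2, where 100 is the lowest q-value of that library. In the stressed libraries, the WT-only regions with a peak had medians of 41.2 and 44.8 in the APH libraries and 44.4 and 44.5 in the CDC6 libraries. Regions of all 3 lists had medians of 89.0 to 90.1 in the stressed libraries, against 91.0 and 88.4 in WT 1 and WT 2. The partly shared classes were nearer to WT-only. In WT 1 and WT 2 their medians were 70.0 and 70.0 at WT and APH, and 78.4 and 71.4 at WT and CDC6. The other classes of 1 list had similar medians in the libraries of their own condition. At APH only they were 66.7 and 61.2 in APH 1 and APH 2. At CDC6 only they were 67.4 and 69.0 in CDC6 1 and CDC6 2. These ranks are thus not particular to WT-only regions. The lists differ in length, from 71435 peaks in APH 2 to 94747 in WT 1, so percentiles place a region within its own library and are not read as a change between libraries.

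**Figure D2:**
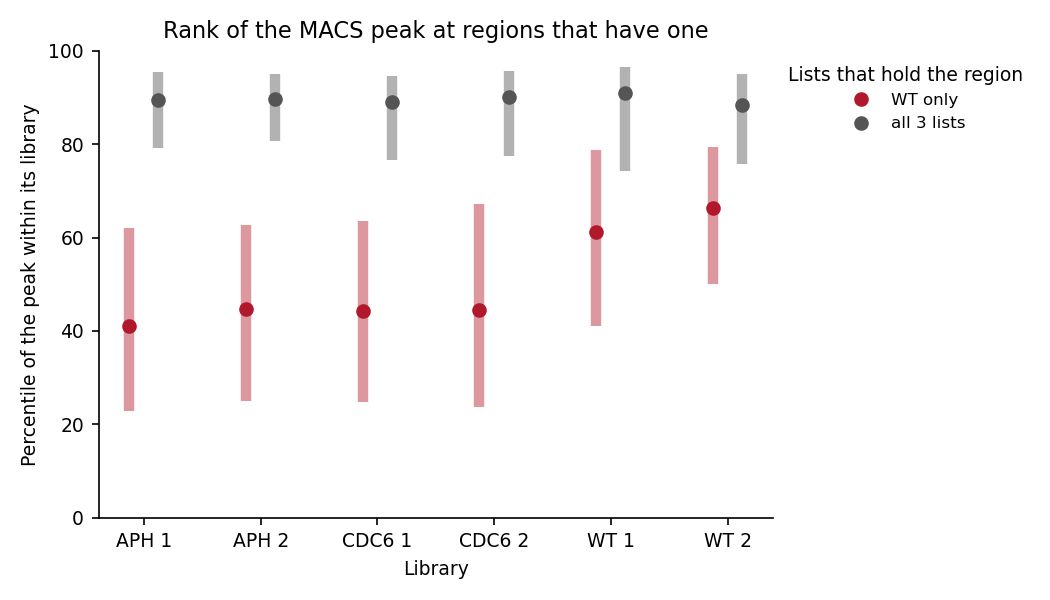
Percentile of the strongest MACS peak by −log10 q-value within its library (y axis) in each library (x axis), for WT-only regions and regions of all 3 lists that have a peak; points are medians and bars span the quartiles. The medians of WT-only regions lie between 41.2 and 66.4 and those of all 3 lists between 88.4 and 91.0.

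By the fold of the peak over the control, WT-only regions were again below regions of all 3 lists in each library. Median folds at WT-only regions with a peak were 2.51 and 2.45 in APH, 2.45 and 2.68 in CDC6 and 2.80 and 2.64 in WT 1 and WT 2. At regions of all 3 lists they were 4.03 and 4.16 in APH, 3.99 and 4.06 in CDC6 and 3.95 and 3.22 in WT. In WT 1 and WT 2 they were 2.97 and 2.68 at WT and APH, and 3.16 and 2.69 at WT and CDC6. WT-only regions had a median width of 561 bp (quartiles 500 and 692 bp, range 401 to 4250 bp). The median was 640 bp at WT and APH, 881 bp at WT and CDC6, 1168 bp at all 3 lists, 775 bp at APH and CDC6, 542 bp at APH only and 646 bp at CDC6 only. In the WT list, the second deposited score over the first, which is at least 1.5 at every row, had a median of 2.31 at WT-only regions. It was 2.55 at WT and APH, 2.63 at WT and CDC6 and 4.50 at all 3 lists. The 2 WT libraries ranked the WT-only regions differently: across the 3827 regions with a peak in both, the Spearman correlation of the percentiles was 0.144. Those points share the control and the list that chose them, so the value is a description only. WT 1 and WT 2 also differ in the cell line.

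The position of WT-only regions among genes was not used to choose them. They were mostly away from gene ends, here the 1 kb before and after the 5′ and 3′ ends of protein-coding genes (RefSeq, GRCm38.p6). Of the 3873 regions, 279 (7.20%, interval 6.41% to 8.06%) were at a gene end, against 19.8% of all merged regions. With the APH and CDC6 lists shortened to the length of the WT list, a setting chosen after seeing the data, the share was 11.5% of 6581 regions. In gene bodies lay 1713 (44.2%), against 52.6% of all regions, and 2098 (54.2%) lay between genes, against 46.2% of all regions. A 5′ end was within 1 kb of 4.05% and a 3′ end of 2.07%. The median distance to a gene end was 37.6 kb, against 22.8 kb over all regions, and 25.3% had no protein-coding gene within 100 kb, against 20.7%.

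Other classes ranged widely around these values. At a gene end were 8.17% of WT and APH, 33.9% of WT and CDC6, 45.3% of all 3 lists, 9.11% of APH and CDC6, 4.70% of APH only and 16.8% of CDC6 only. The WT-only share was thus closest to that of WT and APH. Counted the other way, WT-only regions were 4.31% of the 6472 WT-list regions at gene ends, 23.8% of the 6283 in gene bodies away from the ends and 28.9% of the 7253 between genes. Each condition has 1 list, so these shares have no replicate error and were not tested. By chromosome, the WT-only share of WT-list regions ran between 14.1% on chromosome 11 and 24.4% on chromosome 16, with 18.6% on X.

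Where a WT-only region lay among genes went with the number of stressed libraries that had a peak there. The share at a gene end was 2.42% for regions with no stressed peak, then 3.69%, 5.03% and 8.26% with 1, 2 and 3, and 16.9% with all 4. The share in gene bodies was 39.5% with none and 54.9% with all 4. The WT percentile moved along with it: the medians with none were 49.8 in WT 1 and 58.0 in WT 2, and with all 4 they were 76.4 and 73.1. The part of peak strength in the link with position was not tested. Of the 279 regions at gene ends, 136 (48.7%, interval 42.7% to 54.8%) had a peak in all 4 stressed libraries and 20 (7.17%) in none. Of the 2098 regions between genes, 335 (16.0%) had a peak in all 4 and 495 (23.6%) in none.

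**Figure D3:**
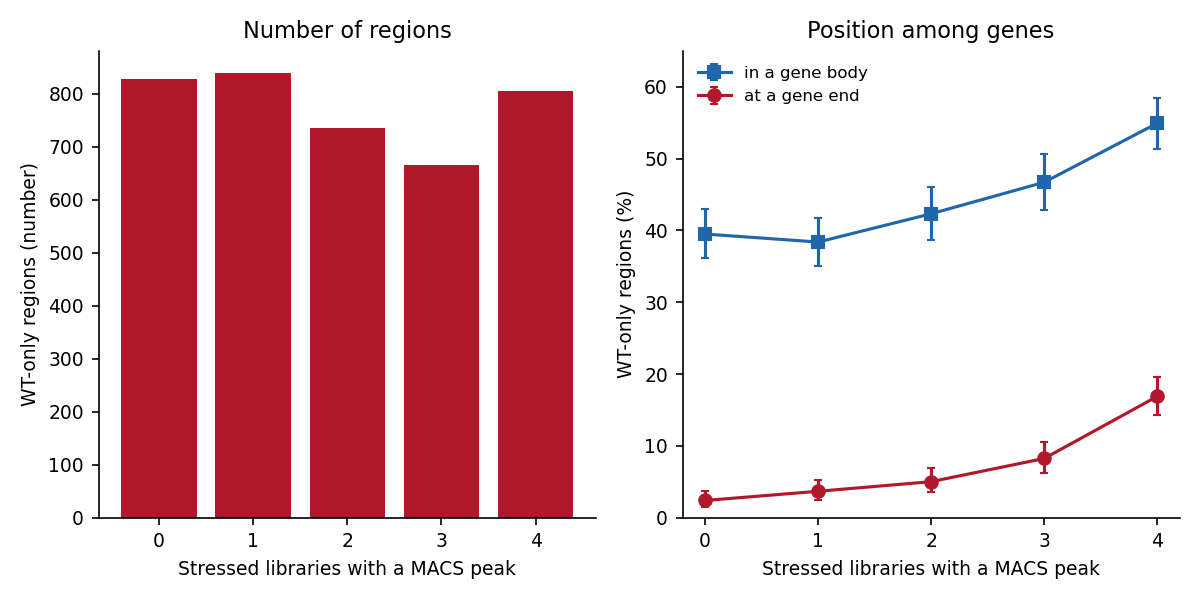
WT-only regions by the number of stressed libraries with a MACS peak (x axis, 0 to 4): the number of regions (left y axis) and the percent in a gene body or at a gene end (right y axis), with exact 95% binomial intervals. The bars lie between 666 and 839, and the gene-end share is 2.42% with no stressed peak and 16.9% with 4.

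The strongest WT-only regions at gene ends carried peaks in nearly every stressed library. Of the 20 with the highest lower WT percentile, 18 had a peak in all 4 stressed libraries, 10 had an origin of a stress list within 2 kb and 5 within 1 kb. First among them was a 727 bp region at chr5:136568508-136569234 (mm10), 0.917 kb outside the 5′ end of Cux1, which encodes a homeobox transcription factor. Its folds were 7.37 and 8.34 in APH, 7.62 and 7.39 in CDC6 and 6.99 and 4.62 in WT, so all 4 stressed values were above both WT values. An origin of a stress list lay 0.078 kb away. At the 5′ end of Cacnb3, a β subunit of voltage-gated calcium channels, folds were 5.38 and 8.02 in APH, 4.71 and 5.40 in CDC6 and 5.59 and 4.09 in WT, which overlap. Folds of different libraries depend on their depth, which is unknown, and each is given as that library's own value.

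Several regions of this group lay beside a stress-list origin. The 5′ end of Cadm4, a cell adhesion molecule, had 3.88 and 4.23 in APH, 2.70 and 2.73 in CDC6 and 5.33 and 3.14 in WT, with a stress-list origin at 0.149 kb. Near Ctdsp1, a phosphatase that acts on RNA polymerase II, the distance was 0.372 kb, and near Prrt1, a protein associated with AMPA receptors, 0.471 kb. At Cadm4 the APH and WT folds overlap, and both CDC6 folds were below both WT folds.

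Other regions of this group were farther from a stress-list origin. The region over the 5′ end of Mob1b, an activator of Hippo pathway kinases, had folds of 2.63 and 3.02 in APH, 3.54 and 2.62 in CDC6 and 6.90 and 3.49 in WT, with the nearest stress-list origin 44.3 kb away. The region over Ubl5, a ubiquitin-like protein, and the start of Fbxl12 had 2.62 and 3.08 in APH, 3.94 and 3.0 in CDC6 and 4.54 and 3.72 in WT, with that origin 55.6 kb away. At Mob1b and Ubl5 1 stressed library, CDC6 1, reached above the lower WT value. At the Pip5k1a promoter printed above, folds were 2.33 and 2.65 in APH, 4.09 and 2.88 in CDC6 and 5.54 and 3.63 in WT, again with CDC6 1 above WT 2. The shared region of Atp5d, a subunit of ATP synthase, and Cbarp had nearly equal folds, 4.38 and 4.29 in APH, 4.07 and 4.15 in CDC6 and 4.47 and 4.09 in WT.

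Others of the 20 were at Dcxr and Rac3, Tpt1, Izumo1 and Rasip1, Dpf1, Bcl11b, Elmod2, Nanos3, Mfap4, Il27ra and Cfap43. Elmod2, a GTPase-activating protein, lacked a peak in APH 1, and Il27ra, a receptor for interleukin-27, lacked one in APH 2 and CDC6 2. Nanos3, an RNA-binding protein of germ cells, had folds of 2.83 and 3.84 in APH, 2.51 and 3.29 in CDC6 and 4.45 and 3.44 in WT. Bcl11b, a zinc-finger transcription factor of T cells and neurons, had 3.79 and 4.76 in APH, 4.46 and 4.05 in CDC6 and 3.89 and 3.80 in WT. In both, the stressed and WT folds overlap.

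Of the 828 regions with no peak in any stressed library, 327 (39.5%) were in gene bodies and 20 (2.42%) at gene ends. Over all WT-only regions these shares were 44.2% and 7.20%. Of the 10 strongest, 4 were inside a gene and none at a gene end, near the shares among the 828. A 632 bp region at chr3:53572601-53573232 inside Frem2, an extracellular matrix protein, had folds of 4.09 in WT 1 and 3.07 in WT 2. Inside Cenpf, a kinetochore protein, the folds were 3.52 and 3.06. Inside Dlg2, a scaffold protein of synapses, they were 3.60 and 3.0, with a stress-list origin only 0.208 kb away, and inside Dhodh, an enzyme of pyrimidine synthesis, 3.18 and 2.93. Of the 6 between genes, the one 34.6 kb from Frem1 had 3.48 and 3.60 and the one 162 kb from Gap43 had 4.60 and 2.95. The others were nearest to 2610301B20Rik, Cntnap4, Potegl and Ppp6c. All 10 had folds between 2.93 and 4.60 in the WT libraries.

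Within genes, the WT-only share of WT-list regions was higher the longer the gene. It was 6.89% (interval 6.02% to 7.85%) in genes under 20 kb, 11.6% (10.7% to 12.4%) in genes of 20 to 100 kb, 17.7% (16.5% to 19%) in genes of 100 to 500 kb and 28.8% (25.9% to 31.8%) in genes over 500 kb. Peaks in the stressed libraries followed the same order. WT-only regions with no stressed peak made up 8.53%, 15.3%, 20.9% and 31.3% of the WT-only regions in these 4 classes, and regions with all 4 made up 50.2%, 31.1%, 18.5% and 13.4%. Short genes have more of their length near an end, and the part of that in this order was not tested.

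**Figure D4:**
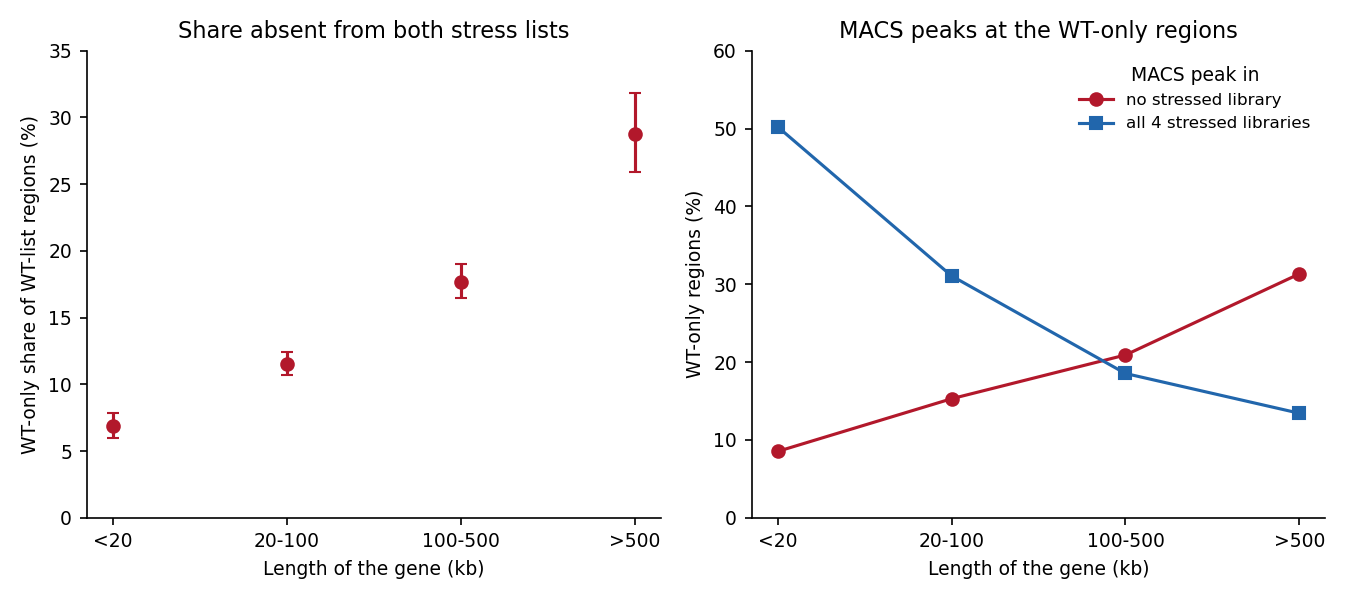
Left, WT-only regions as percent of the WT-list regions in bodies of protein-coding genes (y axis) by gene length in kb (x axis), with exact 95% binomial intervals; right, percent of these WT-only regions with a MACS peak in no stressed library or in all 4. The left share is 6.89% under 20 kb and 28.8% over 500 kb, and the 2 curves on the right cross between 20 and 500 kb.

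WT-only regions lay in 1469 of 21631 protein-coding genes, of which 1258 held 1, 165 held 2 and 46 held 3 or more. Most were in Dlg2 (chr7:90476188-92449246), a gene of 1973 kb, which held 8 among its 34 regions and 15 regions with a WT row. No stressed library had a peak at 4 of the 8 and all 4 had one at 1. Epha6, an ephrin receptor, held 5 of 20 regions. Cep112, a centrosomal protein, Hpse2, a heparanase-like protein, and Kalrn, a guanine nucleotide exchange factor at synapses, held 4 each, of 12, 9 and 10 regions. Cep112 differed from the other 4 genes in that 3 of its 4 WT-only regions had a peak in all 4 stressed libraries and none lacked a peak in every one.

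A list of 20 long neuronal genes, several of them known in human or mouse as sites prone to breakage or deletion under aphidicolin, held 48 WT-only regions in 18 genes. These were 36.1% of the 133 WT-list regions in these genes and 13.8% of all their 347 regions, against 19.4% and 8.3% over the genome. In all genes over 500 kb the first share was 28.8%. None lay at a gene end. No stressed library had a peak at 24 of the 48, 1 had one at 12, 2 at 6, 3 at 5 and all 4 at 1. Over all WT-only regions the shares with none and with all 4 were 21.4% and 20.8%. In genes over 500 kb they were 31.3% and 13.4%. Folds where a peak was present had medians of 2.60 and 2.40 in APH, 2.40 and 3.06 in CDC6 and 2.72 and 2.53 in WT, with 11, 10, 16 and 6 regions in the stressed libraries, against 45 and 48 in WT 1 and WT 2. Inside Wwox, an oxidoreductase gene that spans a human fragile site, lay 4, and Csmd1 and Csmd3 held 4 each. At chr8:114538877-114539580 in Wwox the folds were 3.50 in WT 1 and 2.61 in WT 2, with no peak in any stressed library. The list was chosen with earlier results of these data known and is not independent evidence.

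At the other gene lists, the WT-only share of WT-list regions lay between 0% and 11.1%. Over the genome it was 19.4%, and in genes under 20 kb and of 20 to 100 kb it was 6.89% and 11.6%, so nothing particular to these lists is read from it. Of 17 WT-list regions at 20 pluripotency genes, which include Pou5f1, Sox2 and Nanog, 0 were WT-only. Among 29 genes of origin licensing and firing, 1 of 14 was, at an end of Mcm10, a factor that helps activate the replicative helicase: its folds were 2.52 in CDC6 1, 2.78 in WT 1 and 3.14 in WT 2, with no peak in the other 3 libraries. Among 29 matched genes of the replication stress response, 2 of 18 were. At an end of Hltf, which remodels stalled forks, folds were 1.95 in CDC6 1, 2.59 in CDC6 2, 3.03 in WT 1 and 2.06 in WT 2, with no peak in APH. In Tipin, which with Timeless stabilises forks, they were 2.70 in APH 1, 2.27 and 2.41 in CDC6 and 3.57 and 2.54 in WT, with no peak in APH 2. In these 3 genes each missing peak was thus in APH 1, APH 2 or CDC6 2.

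Of 42 WT-list regions at 30 chromatin regulators, 2 were WT-only. In Jarid2, a partner of Polycomb complex 2, folds were 2.49 in WT 1 and 2.57 in WT 2 with no stressed peak, and in Crebbp, a histone acetyltransferase, 2.32 and 2.46 in APH, 2.96 in CDC6 2 and 3.50 and 2.29 in WT, with no peak in CDC6 1. Of 42 at 30 developmental transcription factors, 3 were, at Cux1 (above), Lhx2 and Pax7, and all 3 had a peak in every stressed library. Lhx2, a forebrain and eye regulator, had 2.77 and 4.06 in APH, 3.60 and 3.45 in CDC6 and 3.65 and 2.66 in WT. Pax7, a regulator of muscle stem cells, had 2.32 and 2.44 in APH, 3.60 and 2.86 in CDC6 and 2.36 and 2.31 in WT. In Lhx2 the groups overlap. In Pax7 the APH and WT folds overlap, and both CDC6 folds were above both APH and both WT folds. Of 97 merged regions that overlap a miRNA hairpin, 1 was WT-only, at Mir194-2, against 8.3% over all merged regions. Nothing is read from this count.

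A further question was whether an origin of the stress lists lay close by. Within 10 kb this was so for 1162 WT-only regions (30.0%, interval 28.6% to 31.5%), at a median distance of 20.4 kb. For WT and APH, WT and CDC6 and all 3 lists, measured to stress-list rows outside the region itself, the shares were 32.1%, 34.4% and 34.1%. The WT-only share was thus the lowest of the 4, with an interval that overlaps that of WT and APH (30.2% to 34.0%). Closer in, 670 WT-only regions (17.3%) had a stress-list origin within 5 kb, 181 (4.67%) within 1 kb and 100 (2.58%) within 0.5 kb. Within 2 kb were 320 (8.26%) of all WT-only regions and 56 (20.1%) of those at gene ends. The median distance was 24.6 kb for regions with no stressed peak and 13.2 kb for those with all 4.

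At the edge of the rule, 20 WT-only regions had a stress-list row within 100 bp without touching it, the closest at 1, 5 and 11 bp. On the other side, 16 WT rows overlapped a stress-list row by at most 100 bp, the closest by 1, 22 and 30 bp, and were therefore not WT-only. Both sides had a median of 4 stressed libraries with a peak. Their median percentiles were 87.4 in WT 1 and 76.5 in WT 2 inside the rule, and 83 and 57.7 outside it.

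Peaks around the WT-only regions that touched no origin of any list were counted as well. The lists that chose the members also decide which peaks touch no origin, and the stress lists are longer than the WT list, so the counts are not independent of the choice and are given as a description. In the 25 kb on each side of WT-only regions lay 3.61% and 3.42% of all MACS peaks of APH 1 and APH 2 and 3.53% and 4.05% of those of CDC6 1 and CDC6 2, against 4.84% and 4.23% of those of WT 1 and WT 2. All 4 stressed libraries were below both WT libraries. The mean was 3.65 ± 0.276% in the stressed libraries (SD, n = 4) and 4.54 ± 0.432% in WT (SD, n = 2), a difference of -0.883 percentage points. With flanks of 10 kb it was -0.300 and with flanks of 100 kb -3.36. Without WT 1, the library from other cells, the difference was -0.578 percentage points.

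The share of peaks outside every origin moved with this difference. Such peaks numbered 37459 and 32960 in the APH libraries and 33657 and 44298 in the CDC6 libraries, below the 62272 of WT 1 and the 45793 of WT 2. As a share of these peaks, the flanks held 7.18% and 7.42% in APH, 7.59% and 7.50% in CDC6 and 7.37% and 7.49% in WT. The APH and WT values overlap, and both CDC6 values were above both WT values. The difference between the stressed and WT means was -0.00432 percentage points. With this denominator, which was chosen after seeing the data, the WT values lay within the range of the stressed libraries.

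**Figure D5:**
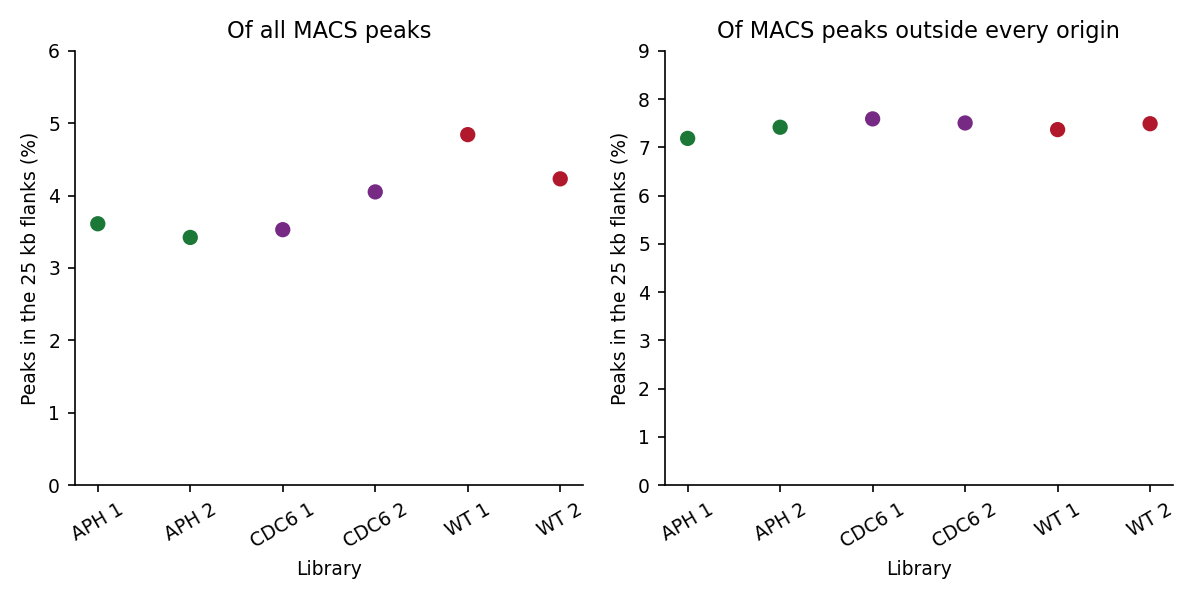
Share of the MACS peaks of each library (percent, y axis) that lie within 25 kb of a WT-only region and touch no origin, of all peaks (left) and of the peaks outside every origin (right), with 1 point per library (x axis). On the left the 4 stressed libraries lie between 3.42% and 4.05%, below WT at 4.23% and 4.84%, and on the right the 6 libraries lie between 7.18% and 7.59%.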

How the data were processed

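Per the labels' protocols, short nascent strands were isolated and sequenced from mESCs in 2 APH, 2 CDC6 and 2 WT libraries, with 1 Input sample whose list was not used here. Per the submitters' processing notes, the tools were MACS2 2.0.10, BWA 0.7.10, bedtools 2.23.0, Picard 1.107, SAMtools 0.1.19 and FastQC. The deposited MACS lists have the column layout of MACS2 peak files: the authors' score, the fold ratio over a control, and the −log10 p-value and q-value of each peak. The deposited condition and second lists carry 2 scores whose meaning the sources do not state. The files give no read counts, so depth is unknown, and the number of peaks (71435 to 94747 per library) limits the precision.

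Intervals were merged, overlapped and ranked in Python 3.11.15 with numpy 2.4.6, pandas 2.3.3 and scipy 1.17.1, and the interval code was checked against bedtools 2.31.1. The submitters' processing notes name GRCm38, mm10 and mm9. Positions were read as mm10 (GRCm38), since 35.9% of regions of all 3 lists overlapped a promoter window of GRCm38.p6, and gene positions, promoters and miRNAs came from RefSeq tables of GRCm38.p6. Gene starts and strands were known for 17274 of 21631 protein-coding genes. Of the 30 symbols in the replication stress list, 29 matched.

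The members, gene lists and tests were chosen with earlier results of these data known. Named regions are the 20 at gene ends and the 10 without a stressed peak with the highest lower WT percentile, the 5 genes with most WT-only regions (ties by shorter gene), members at listed genes, and the 6 promoters that ranked highest, excluding chromosome 18. Others of the long genes are given as counts, and 1 named region at a gene end is not reported here. The planned exact two-sided permutation test of the flanking share over libraries gave p = 0.0667, the smallest its 15 assignments allow, and is not used as evidence because the lists decide which peaks are counted. Alternatives covered the overlap rule, peak thresholds, windows, distances, single libraries, chromosomes and lists.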

Additional observations from a re-analysis of the deposited data

How the results depend on the processing

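The number of WT-only regions, 3873 as reported, was 7473 with lists rebuilt from MACS peaks found in both libraries of a condition. In rebuilt lists with 1 library left out it ran between 5401 and 46845, and the 2 highest values were 28432 without WT 1 and 46845 without WT 2, where the whole list of a single WT library was set against sites found in both stressed libraries. With the APH and CDC6 lists shortened to the length of the WT list by the ratio of their 2 scores, an alternative added after seeing the data, 6581 regions were WT-only and 11.5% of them lay at a gene end. The share with no stressed peak, 21.4%, became 34.6% with peaks of −log10 q at least 2, 23.7% with an overlap of at least 200 bp and 0% with the second lists as labelled, and 22.9% to 35.3% without 1 stressed library (highest without CDC6 1). The share with all 4 became 11.8%, 17.2% and 1.63% under these settings, and 23.3% to 28.3% without 1 library. The 0% was fixed in advance, because all WT-list rows are rows of the second list labelled APH 1. The 1.63% rests on the same labels, and nothing is read from either value. The gene-end share was 5.27% with a window of 500 bp and 10.1% with 2 kb. The share near a stress-list origin was 17.3% within 5 kb and 56.6% within 25 kb. Wider windows and distances raise these shares by construction. The median percentiles became 45.4 and 46.0 in CDC6 1 and CDC6 2 when peaks were ranked by fold. Among the strongest 50000 peaks of each library they were 35.7, 37.4, 37.1 and 40.3 in APH 1, APH 2, CDC6 1 and CDC6 2, against 48.6 and 51.2 in WT 1 and WT 2.

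The difference in flanking peaks depended on the flank and on the denominator: it was -0.300 percentage points with 10 kb, -3.36 with 100 kb and -0.00432 as a share of the peaks outside every origin. Among the 6 settings without 1 library it lay between -1.19 and -0.578, the value without WT 1. It was -1.64 with the second lists as labelled, and nothing is read from this value because those labels go against the other files. With the replicate block (labels exchanged only among libraries of the same number) it was -0.883 with an exact permutation p = 0.111. Deviations of peak numbers in 1 Mb bins correlated at -0.29 between APH and CDC6 and -0.52 between APH and WT. Between CDC6 and WT the correlation was 0.28. The signs differ, so the numbers do not mark a pairing shared by all groups.

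Each condition has 1 list, so list-based values have no replicate error, and depth is unknown. For the remaining settings the cause of a change was not tested.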
